A study of Mus musculus with 49 samples.

Results

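Forkhead factors are transcription factors that share a winged-helix DNA-binding domain and fall into lettered subfamilies. The 10 genes described here are Foxj3 together with Foxj2, Foxk1, Foxk2, Foxo1, Foxo3, Foxm1, Foxp1, Foxn2 and Foxr1. They were chosen by name, with earlier results of these data known, from the 54838 genes counted in mouse late 2-cell embryos. Each matched 1 protein-coding gene of the GRCm38 annotation. In the early embryo, transcripts stored in the oocyte are cleared while the embryo's own genome is switched on, so that a late 2-cell level is a mixture of what was inherited and what was newly made. Among the subfamilies, FOXO factors are held in the cytoplasm when AKT phosphorylates them, FOXM1 works with the MuvB complex on genes needed for mitosis, and FOXK factors bring SIN3 and BAP1 complexes to chromatin. FOXJ3 is known for activating Mef2c in muscle, and FOXO3 for keeping ovarian follicles dormant.

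The embryos had F1 (C57BL/6JxCBA/H) mothers and F1 fathers, so they are offspring of F1 mice and not F1 themselves. In LOF zygotes a protein was removed by Trim-Away, a method that directs an antibody-bound protein to degradation through the ubiquitin ligase TRIM21. TBP LOF embryos (9) received an antibody to TBP, the TATA-binding protein, and their CONTROL embryos (10) received mouse IgG. FOXJ3 LOF embryos (17) received an antibody to FOXJ3 and their CONTROL embryos (13) rabbit IgG, in library batches 1 (10 LOF, 7 CONTROL) and 2 (7 LOF, 6 CONTROL). Every group, CONTROL included, was injected again after 4 h with mCherry-Trim21 mRNA and collected at 48 h post-hCG, and Trim-Away acts on protein, so Foxj3 mRNA does not measure how far FOXJ3 was depleted. Each library is 1 whole embryo, and fewer cells and less RNA per cell cannot be told apart in it. TBP embryos were collected in several biological replicates, but the labels do not say which embryo belongs to which.

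Of 49 embryos, 47 passed the quality thresholds (in the TBP experiment 9 LOF and 9 CONTROL, in the FOXJ3 experiment 16 LOF and 13 CONTROL), with 1103569 to 5434808 counted reads each. All 7 late 2-cell markers had reads in every group, while 4 to 6 of 9 cumulus cell markers, Fshr and Inhbb among them in every group, were at 0 throughout a group and their summed level was at most 24.1 CPM (reads of a gene scaled to a common total per embryo). The summed late 2-cell markers had a median of 922 CPM in TBP LOF (range 417 to 1141) against 223 CPM in its CONTROL (143 to 587), and the 6 oocyte markers 2502 CPM (1758 to 3175) against 1333 CPM (760 to 2279). Scaled to the spike-ins, 2 of the 7 late 2-cell markers were called higher in TBP LOF (Tcstv3 and Usp17lc) and 0 lower, and of the 6 oocyte markers 0 were called higher and 1 lower (Zp3), where 1.34% of all genes and transposable elements tested were called higher and 29.7% lower. With TMM scaling, which sets most genes level with each other, 5 of the 7 and 5 of the 6 were called higher and 0 and 1 lower, against 12.8% higher and 12.7% lower. Of the 9 cumulus cell markers 3 were tested in TBP LOF. With the spike-ins 1 of these 3 was called lower (Tnfaip6, log2 fold change -2.46) and 0 higher, and with TMM 0 lower and 1 higher, against the same shares. The share of reads from ERCC spike-in RNA, which was added in equal amount to each tube, had a median of 4.38% in TBP LOF and 2.82% in its CONTROL. The median mCherry-Trim21 level was 1390 CPM in TBP LOF and 770 CPM in its CONTROL, and 351 CPM in FOXJ3 LOF and 839 CPM in its CONTROL. The part of these differences in the results that follow was not tested, except where a value is given.

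The start regions of Foxr1, Foxj2, Foxj3 and Foxo3 are shown first, because Foxr1 and Foxj2 were the members lower upon TBP LOF, Foxj3 is the factor depleted in the other experiment, and Foxo3 was among the members that were not lower. Each sequence is from RefSeq (GRCm38.p6), runs 5′ to 3′ on the gene's strand, and covers 60 bases before and 20 bases after the annotated start. Capitals mark TATAA or TTAAAA.
Foxr1, chr9:44440849-44440928, minus strand: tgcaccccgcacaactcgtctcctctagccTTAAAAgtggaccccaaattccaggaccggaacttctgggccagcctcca
Foxj2, chr6:122820124-122820203, plus strand: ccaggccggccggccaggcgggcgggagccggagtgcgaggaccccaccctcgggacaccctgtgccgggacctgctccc
Foxj3, chr4:119539601-119539680, plus strand: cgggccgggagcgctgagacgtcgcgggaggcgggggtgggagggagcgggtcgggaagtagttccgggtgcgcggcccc
Foxo3, chr10:42276676-42276755, minus strand: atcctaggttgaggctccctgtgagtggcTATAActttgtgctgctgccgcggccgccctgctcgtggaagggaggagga

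Foxr1 carries TTAAAA beginning at position -30 and Foxo3 carries TATAA at position -31, counted from the annotated start, and neither motif occurs in the windows of Foxj2 and Foxj3. In windows of these 80 bases, read on the gene's strand, TTAAAA occurred in 2.57% and TATAA in 6.43% of all 32851 promoters of the table. TTAAAA was added to the search after the Foxr1 window had been read. Over the full 300 bases, 250 before and 50 after the start, on both strands, the shares were 19.2% for TTAAAA, 24.9% for TATAA and 13.6% for the longer TATAAA, which contains TATAA, and the forkhead motifs GTAAACA and ATAAACA were found in 3.65% and 4.60%. Of the 7 members with a promoter in the table, ATAAACA was found only at Foxp1 (in 2 of its 3 start regions), GTAAACA in none, and no motif of those searched in Foxj2, Foxj3, Foxk2 or Foxo1. Foxj2, Foxj3 and Foxo3 had start regions of 78.3%, 75.0% and 75.0% G and C with 37, 42 and 35 CG dinucleotides, and Foxr1 one of 59.0% with 16, where the median of all promoters was 52.7% and 7. The annotated RefSeq starts lay 268 bases (Foxr1), 270 bases (Foxj2), 2657 bases (Foxj3) and 60 bases (Foxo3) from the GENCODE gene starts, and which start the embryos used was not tested.

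Foxr1 was the most abundant forkhead transcript and Foxj3 the next in both CONTROL groups and in FOXJ3 LOF. In TBP LOF the medians of Foxj3 (128 CPM), Foxo3 (101 CPM) and Foxn2 (82.1 CPM) lay above that of Foxr1 (81.0 CPM). The means of Foxj3 and Foxr1 there were close, at 114 and 111 CPM. Of the 63540 reads of the 10 genes over all 47 embryos, 35.3% were from Foxr1 (chromosome 9, 44433773 to 44441136), 18.8% from Foxj3 (chromosome 4, 119537004 to 119629119), 12.3% from Foxo3 and 11.3% from Foxn2, and 0.198% from Foxp1. The other 34 forkhead genes of the annotation gave 4561 reads in all, 6.70% of the reads of the family, and of these Foxn3 alone had a read in every embryo (2312 reads), whereas 9 of the 10 members did, all but Foxp1. As the 10 were chosen with earlier results of these data known, this contrast may follow from the choice. In the 22 CONTROL embryos of both experiments, Foxr1 had a median of 213 CPM (range 29.4 to 527), Foxj3 of 111 CPM (50.8 to 157), Foxo3 of 69.6 CPM (25.5 to 141), Foxn2 of 62.7 CPM (39.2 to 118) and Foxk2 of 38.9 CPM (26.1 to 54.2). Foxo1 (30.4 CPM), Foxj2 (28.1 CPM) and Foxm1 (26.7 CPM) followed with overlapping ranges, then Foxk1 at 11.8 CPM (3.73 to 22.4) and Foxp1 at 0.649 CPM (0 to 2.91).

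Divided by exon length, the order of the levels changed in the middle but not at its ends. Foxr1 had a median of 92.8 CPM per kb against 10.1 CPM per kb for Foxj3, and lay above Foxj3 in 22 of 22 CONTROL embryos, with a mean difference of 3.22 on the log2 scale and an SD of 0.92. Foxj3, Foxo3 and Foxn2 were neighbours that did not differ beyond their spread, since their log2 differences of 0.17 (SD 0.61) and 0.00147 (SD 0.49) were smaller than the SD. The difference of Foxk2 below Foxn2, 0.25 (SD 0.46), was likewise smaller than its SD. Foxk2 lay above Foxm1 by 0.59 (SD 0.45), in 21 of 22 embryos. Foxm1, Foxj2 and Foxo1 did not differ beyond their spread, and Foxk1 and Foxp1 were lowest at 1.56 and 0.0472 CPM per kb. The counted reads came from fragments that carry the 5′ adaptor and mark transcript 5′ ends, so their number need not grow with exon length. Before this division Foxr1 lay above Foxj3 in 20 of 22 CONTROL embryos, by a mean of 0.95 on the log2 scale (SD 0.91). The wider gap per kb follows from exon lengths of 2291 bases (Foxr1) and 10973 bases (Foxj3). The order per kb is thus a rescaling, not a measured order.

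**Figure D1:**
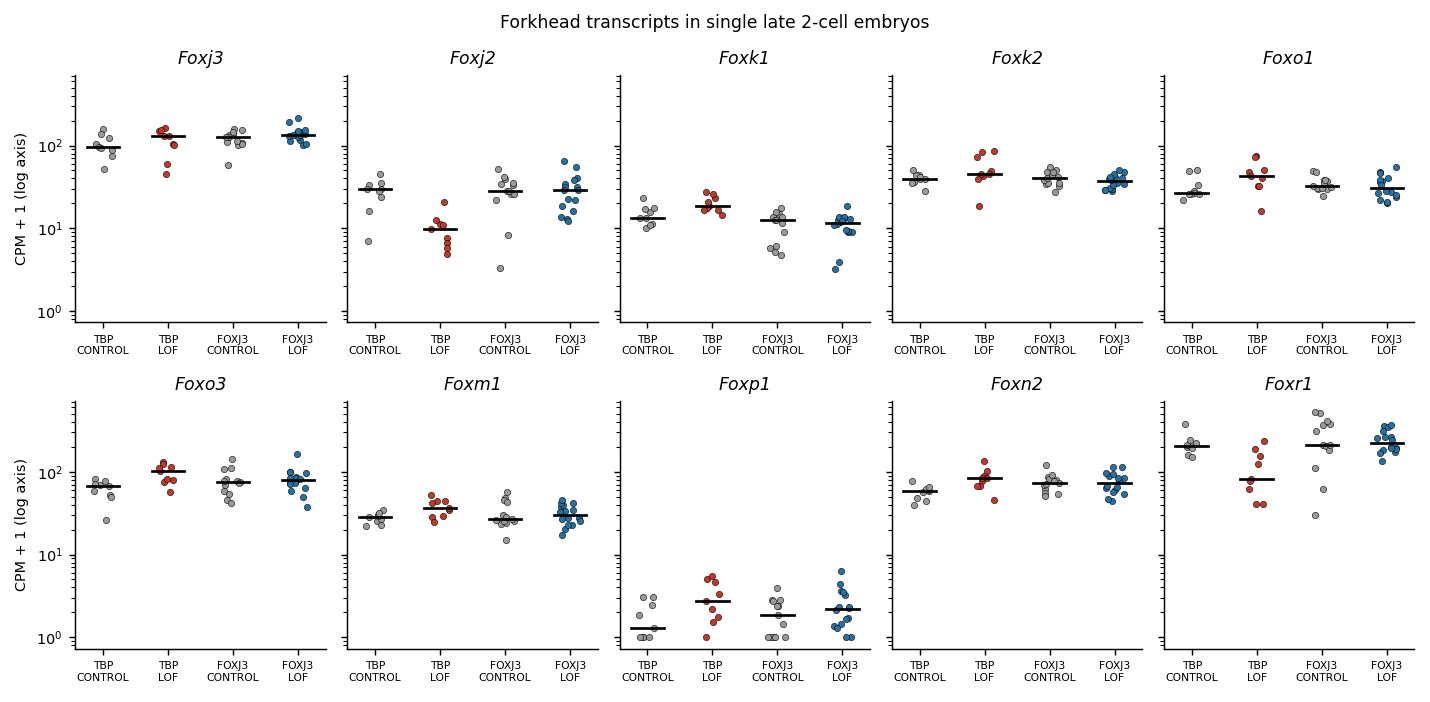
Each point is 1 embryo and each bar the median of a group, in CPM + 1 on a log axis, with 1 panel per forkhead gene. Foxr1 and Foxj3 are the highest genes in CONTROL, Foxp1 stays near the floor, and Foxj2 and Foxr1 are shifted down in TBP LOF.

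Upon TBP LOF, Foxj2 and Foxr1 fell and none of the other 8 members passed the test when counts were scaled to the spike-ins. Foxr1, the leading forkhead transcript, had 62.0 to 300.8 spike-in scaled reads in the 9 LOF embryos (median 191) and 339 to 993 (median 438) in the 9 CONTROL embryos. Every LOF embryo lay below every CONTROL embryo. The difference was -1.65 on the log2 scale (SE 0.32), with a Benjamini-Hochberg adjusted p = 3.9e-05 in the quasi-likelihood test of edgeR, which leaves 31.8% of the CONTROL level.

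Foxj2, the closest relative of Foxj3, had 4.83 to 31.1 scaled reads in LOF (median 12.3) and 13.5 to 87.6 in CONTROL (median 65.0). The groups overlapped through the lowest CONTROL embryos: 6 of 9 LOF embryos lay below the lowest CONTROL embryo and 9 of 9 below the CONTROL median. The difference was -2.16 on the log2 scale with an SE of 0.38 (adjusted p = 9.7e-06), a level of 22.4% of CONTROL, from raw counts of 5 to 38 reads in LOF and 10 to 82 reads in CONTROL. These 2 of 10 members are to be read against 31.1% of the 19356 genes and transposable element (TE) families tested that were called in this comparison (29.7% lower, 1.34% higher). For separation of the groups, 1 of 10 members, Foxr1, had every LOF embryo below every CONTROL embryo, against 6.69% of all features tested.

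Foxj3 itself did not pass the test upon TBP LOF. It had 44.7 to 300.1 scaled reads in LOF (median 195) and 136 to 364 in CONTROL (median 205), and 5 of 9 LOF embryos lay under the median of CONTROL, for a difference of -0.36 on the log2 scale with an SE of 0.31 (adjusted p = 0.42). Foxk1, Foxk2, Foxo1, Foxo3, Foxm1 and Foxn2 had log2 fold changes between -0.14 and 0.11 with SEs of 0.30 to 0.34 and adjusted p-values of 0.79 to 0.98. Foxp1 had 0 to 8 reads in each embryo of both groups and a difference of 0.98 on the log2 scale, SE 0.85 (adjusted p = 0.42), which this depth cannot tell from no change.

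The values of these 8 genes depend on what their counts are compared with, and those of Foxj3, Foxk1, Foxk2, Foxo1 and Foxm1 changed sign between the scalings. On the spike-in scale the median log2 fold change of all features was -0.72, so a gene at 0 stood above most others, and 8 of 10 members lay above that median. With TMM scaling the median was 0.11, and Foxo3 (0.93, SE 0.21, adjusted p = 0.0013), Foxn2 (0.81, SE 0.20, adjusted p = 0.0034), Foxm1 (0.71, adjusted p = 0.012), Foxo1 (0.76, adjusted p = 0.023), Foxk1 (0.77, adjusted p = 0.024) and Foxk2 (0.66, adjusted p = 0.027) were called higher. Foxj2 (-1.29, SE 0.32, adjusted p = 0.0028) and Foxr1 (-0.71, SE 0.27, adjusted p = 0.046) were called lower under this scaling too, and Foxj3 (0.38, adjusted p = 0.20) and Foxp1 (1.65, adjusted p = 0.12) were not called. The background under TMM was 25.5% of features called, 12.7% lower and 12.8% higher. Relative to the median of all features, the shift of Foxo3 was 0.83 under both scalings, of Foxn2 0.73 and 0.70, of Foxr1 -0.93 and -0.82, and of Foxj2 -1.44 and -1.39.

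Under TMM the separation of embryos changed as well. Foxo3 had higher TMM-scaled reads in each of 9 LOF embryos than in any CONTROL embryo, and so did Foxn2, where 0.997% of all features did. Foxr1 overlapped under TMM, with 6 of 9 LOF embryos below the lowest CONTROL embryo; every LOF embryo was below in 1.87% of all features and in 0 of 10 members.

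**Figure D2:**
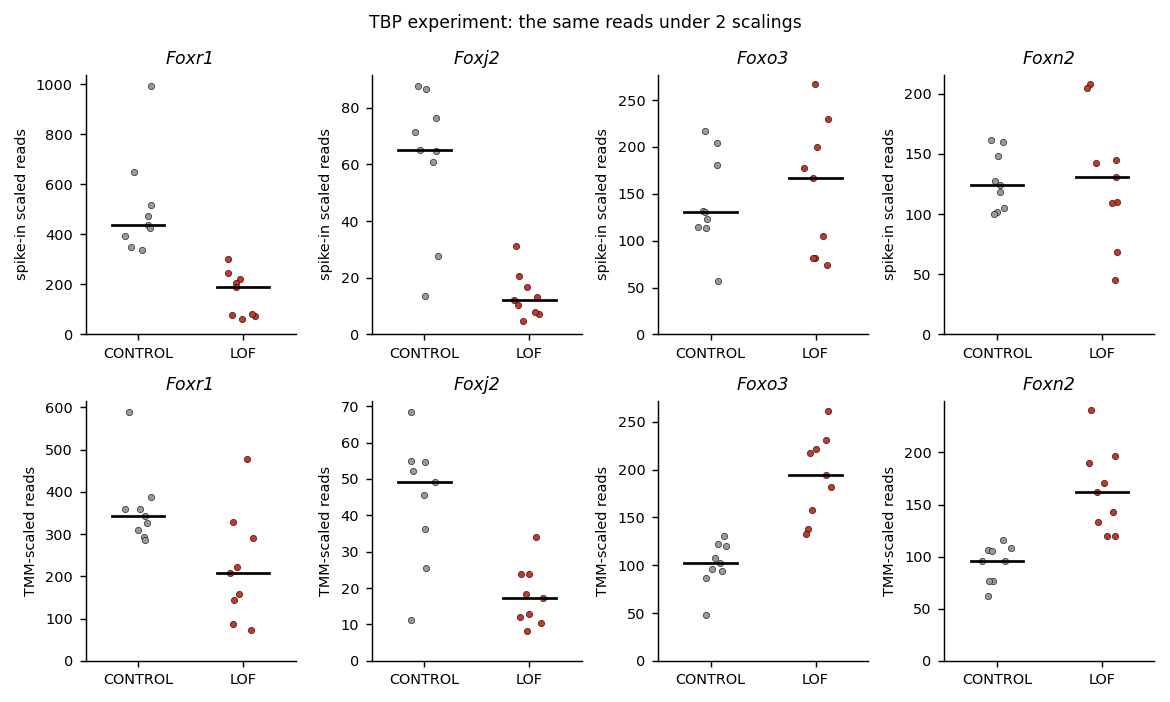
The 9 CONTROL and 9 LOF embryos of the TBP experiment, 1 point each with the median as a bar, for Foxr1, Foxj2, Foxo3 and Foxn2. The upper row is in spike-in scaled reads, where the Foxr1 groups are apart and those of Foxo3 and Foxn2 overlap; the lower row is in TMM-scaled reads, where the Foxo3 and Foxn2 groups are apart.

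Both lower members kept their call under every alternative tried. Over 9 alternatives the log2 fold change of Foxj2 lay between -2.17 and -1.28 (highest adjusted p = 0.0028) and that of Foxr1 between -1.86 and -0.70 (highest adjusted p = 0.046). With each of the 18 embryos left out in turn and spike-in scaling, Foxj2 stayed between -2.42 and -2.03 and Foxr1 between -1.81 and -1.47, and each was called in 18 of 18 fits.

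As a share of the members' own reads, a quantity that no scaling between embryos can move, Foxr1 took 19.2% ± 9.01 (SD, n = 9) in TBP LOF and 37.7% ± 6.60 (SD, n = 9) in CONTROL. Foxj2 took 1.58% ± 0.64 (SD, n = 9) and 4.58% ± 1.74 (SD, n = 9), and Foxj3 19.6% ± 4.53 (SD, n = 9) and 17.7% ± 4.01 (SD, n = 9). The mean shares of Foxr1 and Foxj2 thus lay apart by more than 1 SD of either group and those of Foxj3 did not. The embryos overlapped, with Foxr1 at 5.80% to 33.7% in LOF and 30.3% to 51.0% in CONTROL. For Foxj2 the ranges were 0.806% to 2.61% in LOF and 1.46% to 6.5% in CONTROL. Shares add up to a fixed total, so a lower share of Foxr1 raises those of the other members. The Foxj3 shares therefore cannot show whether Foxj3 itself changed. Their summed level had a median of 601 CPM in LOF and 566 CPM in CONTROL.

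FOXJ3 LOF left all 10 members uncalled, Foxj3 included. Foxj3 had 230 to 466.1 TMM-scaled reads in the 16 LOF embryos (median 290) and 123 to 333 in the 13 CONTROL embryos (median 245). The groups overlapped, although 2 LOF embryos lay above the highest CONTROL embryo and 4 of 16 lay below the CONTROL median. The log2 fold change was 0.28 (SE 0.13, p = 0.038, adjusted p = 0.86, edgeR with library batch as a covariate), so the estimate for the mRNA of the targeted factor lay above 0 and did not pass the test. Within batch 1 it was 0.32 (SE 0.21) and within batch 2 0.19 (SE 0.18), and with the mCherry-Trim21 level as a covariate 0.30 (SE 0.15).

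The other members of the FOXJ3 experiment, apart from the scarce Foxp1, lay close to 0. Foxj2 had a log2 fold change of 0.13 (SE 0.28), Foxr1 of -0.06 (SE 0.24), Foxo3 of 0.07 (SE 0.18), Foxk2 of -0.08 (SE 0.14), Foxo1 of -0.05 (SE 0.16), Foxk1 of 0.03 (SE 0.27), Foxn2 of 0.03 (SE 0.16) and Foxm1 of 0.01 (SE 0.18), with adjusted p-values between 0.97 and 1.00. Foxp1, at 0 to 10 reads per embryo, had 0.51 (SE 0.61, adjusted p = 0.96). Across all 19517 features 0.0102% were called, which are Letm1, a mitochondrial ion exchanger gene (-1.63, adjusted p = 0.0088), and Gm37234 (-4.93, adjusted p = 0.040), both lower and named here after their values were seen. DESeq2 called 0.0205% of features and 0 of 10 members, and at an unadjusted p under 0.05 each tool had 1 of 10 members, Foxj3, against 5.71% (edgeR) and 5.92% (DESeq2) of all features.

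**Figure D3:**
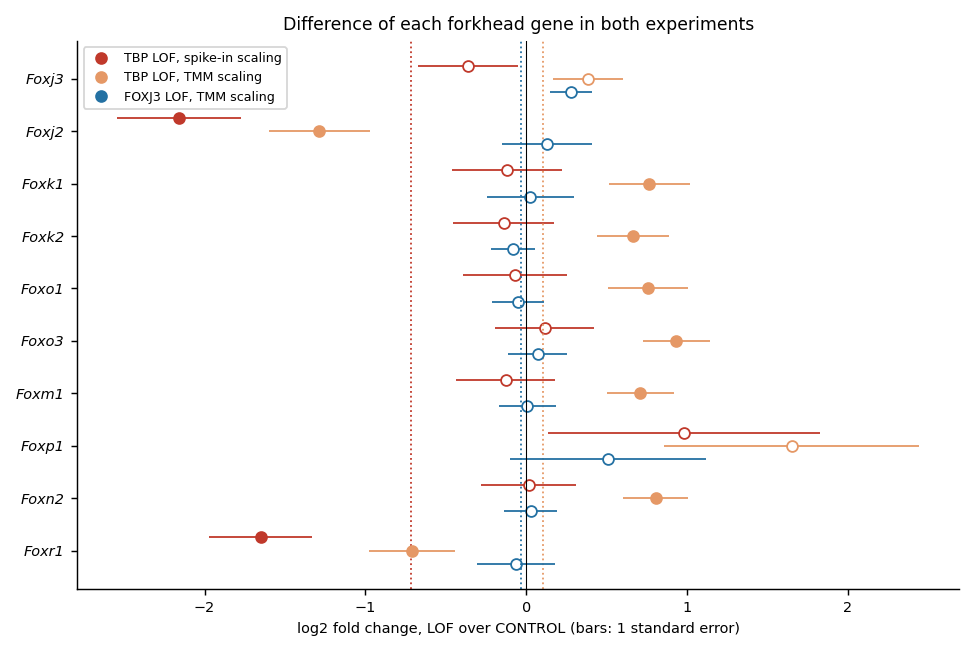
The log2 fold change of LOF over CONTROL for each forkhead gene, with bars of 1 standard error. Filled points passed an adjusted p of 0.05, open points did not, and dotted lines are the median of all features in each comparison. Foxj2 and Foxr1 lie left of 0 under both scalings of the TBP experiment, 6 others are filled on the right with TMM alone, and all FOXJ3 LOF points are open.

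No member passed the test between the batches of the FOXJ3 experiment (0 of 10, against 0.482% of all features). Foxo3 was nearest, with a log2 difference of batch 2 over batch 1 of 0.53 (SE 0.18, p = 0.0055, adjusted p = 0.18, edgeR). Its TMM-scaled reads had medians of 122 and 136 in the CONTROL and LOF embryos of batch 1, and of 157 and 201 in those of batch 2. Foxj3 (0.33, adjusted p = 0.27) also had a higher median in batch 2 in both groups, while Foxn2 (0.37, adjusted p = 0.35) had one in LOF but not in CONTROL. These 3 of 10 members had an unadjusted p under 0.05, where 11.2% of all features had.

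The effect of FOXJ3 LOF did not differ between batches for any member at the adjusted threshold (0 of 10 and 0% of all features called by edgeR, the only tool run on it). At an unadjusted p under 0.05 there was 1 of 10 members, Foxn2, against 7.96% of all features. Foxn2 had medians of 168 scaled reads in CONTROL and 125 in LOF in batch 1, and 153 and 196 in batch 2, an interaction of 0.80 (SE 0.30, p = 0.012, adjusted p = 0.57). Its log2 fold change was -0.35 (SE 0.23) in batch 1 and 0.46 (SE 0.20) in batch 2.

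**Figure D4:**
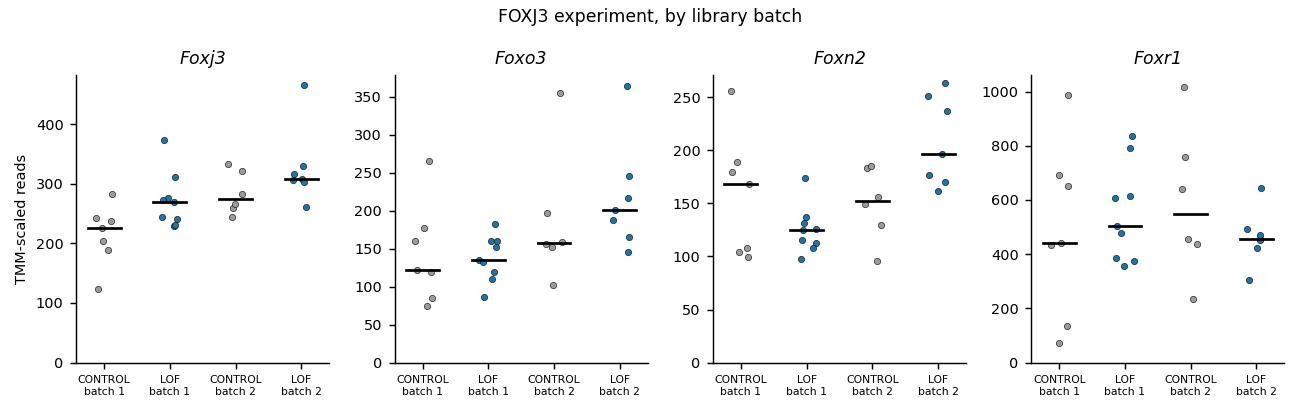
TMM-scaled reads of Foxj3, Foxo3, Foxn2 and Foxr1 in the FOXJ3 experiment, 1 point per embryo and a bar at the median, split by library batch and group. The LOF median of Foxj3 is above the CONTROL median in both batches, and the Foxn2 medians change order between batches.

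The difference between the effects of the depletions was tested in 1 fit of all 47 embryos with TMM scaling. Foxj2 was lower by 1.40 on the log2 scale in TBP LOF than in FOXJ3 LOF (log2 difference -1.40, SE 0.45, adjusted p = 0.019, edgeR), and Foxo3 (0.88), Foxo1 (0.82), Foxn2 (0.80), Foxk2 (0.76) and Foxm1 (0.71) were higher, with adjusted p-values of 0.015 to 0.042. Without the filter on low counts these 5 had log2 differences of 0.56 to 0.72 and none was called (adjusted p of 0.095 to 0.26), while Foxj2 was (-1.55, adjusted p = 0.0058). The 6 of 10 (1 lower, 5 higher) compare with 21.6% of the 19657 features (10.9% lower, 10.7% higher). With spike-in scaling the calls were Foxj2 (-2.43, adjusted p = 1.3e-04) and Foxr1 (-1.79, adjusted p = 9.6e-04), 2 of 10 against 28.9%, and the 5 called higher with TMM had negative values that did not pass. Foxj2 was thus the member whose effect differed between the experiments under both scalings. Foxj3 did not differ under either (0.12, adjusted p = 0.75, and -0.77, adjusted p = 0.14).

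The spread between embryos of a group is given as a description, leaving out the scarce Foxp1. In FOXJ3 CONTROL the coefficient of variation of CPM was 59.8% for Foxr1 and 46.8% for Foxj2, and for the other 7 it ran from 20.1% (Foxk2) through 22.3% (Foxj3) to 43.8% (Foxk1). The Foxj2 value rests on batch 1, at 65.9%, since in batch 2 it was 22.6%, below Foxk1 (37.0%), Foxo3 (36.2%) and Foxm1 (23.2%), while Foxr1 had 70.2% and 53.3%. In batch 1, CONTROL embryos 2 and 3 were low in both genes, with 61.7 and 29.4 CPM of Foxr1 and 2.30 and 7.23 CPM of Foxj2, while their Foxo3 was 82.0 and 109.7 CPM. The TE share of reads was 27.8% and 32.8% in these 2 libraries, where the median of FOXJ3 CONTROL was 22.6% (range 16.5% to 32.8%). In TBP LOF the variation was 62.0% for Foxr1 and 52.8% for Foxj2. In TBP CONTROL it was 30.4% and 41.7%, and in FOXJ3 LOF 30.6% and 52.5%, values of Foxr1 that lay among those of the other members, such as Foxo1 at 33.9% and 32.5%. The Foxr1 value of TBP CONTROL rests on embryo 8 and was 15.7% without it. The Foxj2 values also leaned on single embryos, with 29.3% in TBP CONTROL without embryo 2 and 37.2% in TBP LOF without embryo 10. Counting noise is part of every such value. For Poisson counts it would be 4.15% for Foxr1, 12.9% for Foxj2 and 21.4% for Foxk1 in FOXJ3 CONTROL.

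Within groups and batches, Foxj2 and Foxr1 also tended to be high in the same embryos. Over the 47 embryos, after the mean of each group and batch was removed from log2(CPM + 1), their Pearson r was 0.50 (Spearman rho 0.41, and r = 0.43 without the 2 embryos farthest from the median in Foxj2), which is a description only, as the values of an embryo share a library and its depth. Foxj2 and Foxr1 had r of 0.012 and 0.11 with counted reads, and of -0.29 and -0.39 with the TE share of reads. The part of these measures was not tested. Among the 45 pairs of members the median r was 0.23, and the highest were Foxk2 with Foxo1 (0.66), Foxk1 with Foxo3 (0.51) and Foxj2 with Foxr1, of which the first 2 were 0.49 and 0.46 without the 2 farthest embryos. Foxj3 was nearest to Foxm1 among the members (r = 0.47). Among 6877 genes, the 3 most like Foxj3 were Ugcg, a glucosylceramide synthase gene (r = 0.72, rho 0.55), Rb1cc1, which encodes the autophagy initiation protein FIP200 (r = 0.71, rho 0.67), and Srsf6, a splicing factor gene (r = 0.71, rho 0.55). Without the 2 embryos farthest from the median in Foxj3 these r were 0.55, 0.67 and 0.60.

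Of 20 genes that FOXM1 is known to drive, all tested, 17 were called lower upon TBP LOF and 0 higher, where 29.7% of all features were called lower, and their median log2 fold change was -1.65 against -0.72 for all features. Ccnb2 (-0.65), Birc5 (-0.28) and Cdc25b (-0.25) did not pass, and Foxm1 itself had a log2 fold change of -0.13. Nek2, a centrosome kinase gene, fell by 2.17 on the log2 scale (249 ± 47.7 scaled reads in CONTROL and 55.9 ± 32.0 in LOF, SD, n = 9 each, adjusted p = 5.9e-07, edgeR). The mitotic kinase gene Aurkb fell by 2.42 (adjusted p = 7.6e-07) and the kinetochore motor gene Cenpe by 2.02 (adjusted p = 1.2e-06). With TMM scaling 13 of the 20 were called lower and 1 higher, with a median of -0.85, against 12.7% and 12.8% of all features. Of the 6 MuvB partners 2 were called lower, where 29.7% of all features were. Lin52 fell by 2.05 (adjusted p = 1.5e-05) and Rbbp4 by 0.91 (adjusted p = 0.029), and the other 4, Mybl2 and Lin54 among them, did not pass. With TMM scaling 1 of the 6 was called lower, Lin52 (-1.15, adjusted p = 0.0053, edgeR), against 12.7% of all features, and the Rbbp4 value was -0.10 and not called.

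Among 27 regulators of FOXO factors, 12 were called lower and 0 higher upon TBP LOF, against 29.7% and 1.34% of all features, with a median of -0.74 that is close to the -0.72 of all features. The AKT-related kinase gene Sgk3 fell by 2.26 (20.02 ± 15.1 scaled reads in LOF and 94.0 ± 36.9 in CONTROL, SD, n = 9 each, adjusted p = 3.4e-06, edgeR). Skp2, the ubiquitin ligase subunit that targets FOXO1, fell by 1.60 (adjusted p = 2.0e-04) and the nuclear exporter gene Xpo1 by 1.54 (adjusted p = 2.4e-04). Under TMM 5 of the 27 were called lower and 4 higher, against 12.7% and 12.8% of all features. Of 17 FOXO target genes 14 were tested and 7 called lower, against 29.7% of all features, with a median of -0.90 against -0.72. The autophagy gene Map1lc3b fell by 1.61 (adjusted p = 7.2e-05), the stress gene Sesn1 by 1.90 (adjusted p = 0.0013) and the growth-arrest gene Gadd45a by 1.78 (adjusted p = 0.0018), of which Map1lc3b alone was called under TMM. Under that scaling 1 of the 14 was called lower and 1 higher, against 12.7% and 12.8% of all features, with a median of -0.15.

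Of 9 partners of FOXK factors 2 were called lower, where 29.7% of all features were, the BAP1 complex gene Asxl2 by 1.59 (adjusted p = 0.0057, edgeR) and the deacetylase gene Hdac1 by 0.82 (adjusted p = 0.026), with a median of -0.43 over the 9 against -0.72 for all features. Neither was called lower under TMM, where 3 of 9 were called higher, against 12.8% of all features. Of the other 34 forkhead genes 15 passed the filter on low counts and 0 were called, with a median of 0.14. The nearest to the threshold was Foxh1, a partner of SMAD2 in nodal signalling (2.02, SE 0.91, adjusted p = 0.088, edgeR). It had a mean of 3.73 ± 4.52 scaled reads in LOF and 0.647 ± 1.08 in CONTROL (SD, n = 9 each). Under TMM 4 of these 15 were called higher, against 12.8% of all features. The highest TMM value of the 15 was that of Foxl2 (2.77), which is also on the cumulus cell marker list. Foxl2 had 19 reads in 8 of 47 embryos and was named after its values were seen.

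**Figure D5:**
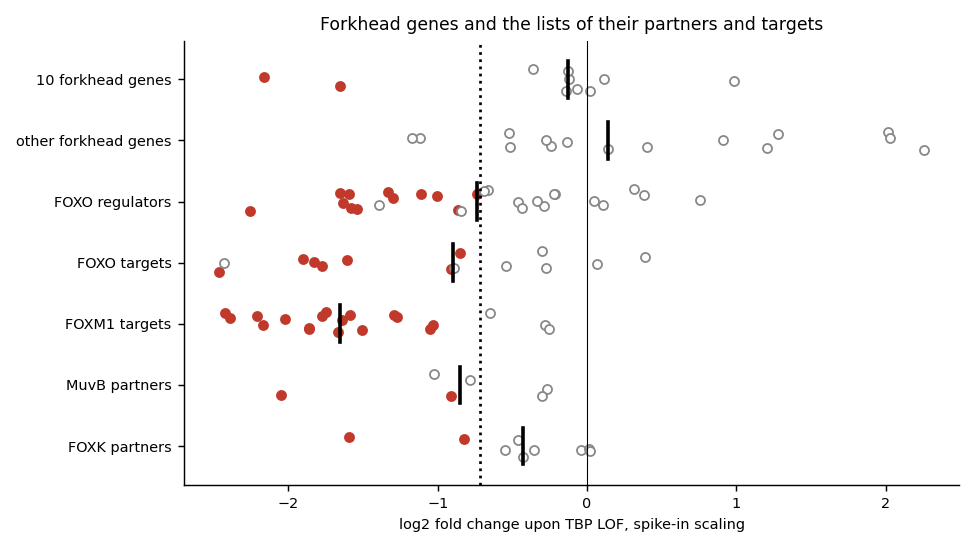
Log2 fold change upon TBP LOF with spike-in scaling, 1 point per tested gene, for the 10 forkhead genes and the lists of related genes. Red points were called, open points were not, bars are list medians and the dotted line is the median of all features at -0.72; the FOXM1 targets lie furthest left, with a median of -1.65.

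In the FOXJ3 experiment no gene of these lists was called (0 of 20 FOXM1 targets, 0 of 6 MuvB partners, 0 of 26 FOXO regulators tested, 0 of 14 FOXO targets, 0 of 9 FOXK partners and 0 of 13 other forkhead genes), where 0.0102% of all features were. At an unadjusted p under 0.05 there were 2 of 13 other forkhead genes, 1 of 26 FOXO regulators and 0 in the other lists, where 5.71% of all features had one. These were Foxe1, a thyroid factor gene (1.74, SE 0.57, adjusted p = 0.65, edgeR), Foxp3, the factor of regulatory T cells (-1.82, SE 0.69, adjusted p = 0.79), and Ywhab, a 14-3-3 protein gene that binds phosphorylated FOXO (0.38, SE 0.15, adjusted p = 0.80). Foxp3 was named after its values were seen. The list medians lay between -0.23 and 0.07.

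In mouse embryonic stem cells, the study found more IAPEZ, LINE1 ORF2, MERVL and SINE B2 RNA after FOXJ3 was overexpressed. It also linked ORR1A1 (a MaLR retrotransposon), B3A and B2_Mm1a (SINE B2 families) to a FOXJ3 motif and MT2_Mm (the MERVL LTR) to a FOXK1 motif through footprints. The reads of these 4 families with a footprint are given beside the factors. In FOXJ3 LOF none of the 4 was called, where 0.0102% of all features were: B2_Mm1a had a log2 fold change of -0.67 (SE 0.26, p = 0.013, adjusted p = 0.79, edgeR), ORR1A1 -0.16 (SE 0.14), B3A 0.09 (SE 0.14) and MT2_Mm -0.07 (SE 0.18). ORR1A1 had 8693 ± 1942 scaled reads in LOF (SD, n = 16) and 9687 ± 2120 in CONTROL (SD, n = 13). Upon TBP LOF, ORR1A1 fell by 2.20 (1955 ± 1122 against 8985 ± 2006 scaled reads, SD, n = 9 each, adjusted p = 5.9e-07) and B3A by 1.03 (adjusted p = 0.0097), whereas B2_Mm1a had -0.81 (adjusted p = 0.17) and MT2_Mm 0.30 (adjusted p = 0.58), with 29.7% of all features called lower. With TMM scaling ORR1A1 was called lower (-1.45), MT2_Mm was called higher (1.04, adjusted p = 0.0079) and B3A (-0.24) was not called, against 12.7% of all features called lower and 12.8% higher.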

How the data were processed

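Libraries of single embryos were made with Smart-seq+5', a Smart-seq2 variant that tags transcript 5′ ends. The authors trimmed reads with Trimmomatic, sorted 5′ reads by adaptor, aligned them with STAR 2.7.11a to GRCm38 with the injected construct added and endogenous Trim21 masked, kept read 2 and counted with TEcount; the strand and multi-read settings are not stated in the sources used here. The deposited values are raw counts per gene and estimated counts per TE family, with no column left out, and all were whole numbers. Subfamily names (42) were summed into 6 families.

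Embryos needed at least 500000 reads, 1000 genes, at most 10% mitochondrial and 15% ERCC reads; 1 TBP CONTROL and 1 FOXJ3 LOF embryo failed. Groups were taken from the sample labels; the methods differ from them by 1 embryo in the TBP group sizes, and which embryo this concerns is not known. Features with a read in 25% of embryos were tested with edgeR 4.0.16 (quasi-likelihood, Benjamini-Hochberg, threshold 0.05; SE from fold change and F), checked on simulated counts. TBP embryos were scaled by 42 ERCC transcripts as the main result, FOXJ3 embryos by TMM with batch as covariate. Alternatives were DESeq2 1.42.0, the other scaling, other filters, genes only, all embryos, single batches, the mCherry-Trim21 level, the replicate block and each embryo left out. Scaled reads are counts divided by size factors of geometric mean 1. CPM uses all counted reads. At 1103569 to 5434808 reads an embryo, genes with few reads such as Foxp1 are measured poorly; SDs and p-values are over embryos, and whether they came from separate collections is not labelled. Symbols matched 54723 of 54838 gene IDs.

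Besides the 10 members, named genes were, per list, up to 3 per direction with the smallest adjusted p among those called, or the 1 with the smallest p; other genes named as marker genes or as not passing were picked after their values were seen. The members and lists were chosen with earlier results of these data known. Per-insertion TE counts were not used here.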

Additional observations from a re-analysis of the deposited data

Results flagged for a closer look

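In 8 of 60 tested sets (1 gene in 1 group or batch), 1 embryo stood apart from the rest by Dixon's test at the 95% level. For normal and independent sets chance gives this in about 1 of 20. These sets share embryos and were read in CPM, and in all 8 sets the embryo stood at the high end, so the rate is only a rough guide. Batch 1 FOXJ3 LOF embryo 11 was the highest for Foxj3 (190.7 CPM, next 145.5), Foxn2 (89.0 CPM, next 66.1) and Foxp1 (2.65 CPM, next 1.30). Batch 2 FOXJ3 LOF embryo 7 was the highest for Foxj3 (211 CPM, next 152) and Foxo3 (166 CPM, next 99.3). Batch 2 FOXJ3 CONTROL embryo 6 had 42.7 CPM of Foxm1 (next 29.2). TBP CONTROL embryo 8 had 377 CPM of Foxr1 (next 244), and TBP LOF embryo 10 had 19.5 CPM of Foxj2 (next 11.7). With any of these embryos left out, the calls of the 10 genes stayed as they were in TBP LOF with spike-in scaling and in FOXJ3 LOF; the TMM fit of TBP LOF and the joint fit were not run without single embryos.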

How the results depend on the processing

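The calls of Foxj2 and Foxr1 upon TBP LOF held under every alternative, and no member was called in FOXJ3 LOF, between batches or in the interaction under any. With TMM and with DESeq2's own size factors, 8 members were called upon TBP LOF instead of 2. Of all features 25.5% were called with TMM and 31.1% with spike-ins, and the share with DESeq2's own size factors is not given here. These values changed sign, respectively: Foxj3 0.38 and 0.39, Foxk1 0.77 and 0.80, Foxk2 0.66 and 0.68, Foxo1 0.76 and 0.78, Foxm1 0.71 and 0.74. The scaling itself moves all features, by 0.82 at the median between the spike-ins and TMM. In the joint fit of both experiments, spike-in scaling called 2 members instead of 6, against 28.9% of all features instead of 21.6%. It turned Foxj3 (-0.77), Foxk1 (-0.33), Foxk2 (-0.25), Foxo1 (-0.24), Foxo3 (-0.18), Foxm1 (-0.30) and Foxn2 (-0.16). Without the filter on low counts the joint fit called 1, Foxj2, and Foxj3 was -0.0308. The share of all features called without the filter is not given here, and the cause was not tested.

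Embryo numbers were not taken as pairs in the main fits. Same-numbered embryos correlated at -0.0515 to 0.121 over 7 TBP pairs and -0.201 to 0.276 over 12 FOXJ3 pairs. Differently numbered embryos were not compared, so these values cannot decide whether the numbers pair the samples. The replicate block gave 2 members in TBP LOF and 1.01 times as many features as the same embryos without it (an alternative chosen after seeing the data). The share of all features called under the block is not given here, and the main fit called 31.1%. Foxk1 was at 0.00311 and Foxo1 at 0.0691 under the block, and Foxk2 at 0.0128 and Foxo1 at 0.0483 without it. In FOXJ3 LOF the block gave 0 features, as did its embryos without the block, with Foxm1 at -0.0483 and Foxr1 at 0.0727 under the block and Foxk1 at -0.0019 and Foxm1 at -0.0878 without it.

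The 2 features called in FOXJ3 LOF became 4 with DESeq2 and without the filter, 1 with filterByExpr and in batch 2 alone, and 0 in batch 1 alone and with the mCherry-Trim21 covariate, and 1 to 4 with an embryo left out. Members near 0 changed sign there without a call. These were Foxk1 (-0.0226), Foxm1 (-0.0135) and Foxn2 (-0.0112) with DESeq2, Foxk2 (0.12), Foxo1 (0.17) and Foxr1 (0.13) with spike-ins, and Foxm1 (-0.0077) without the filter. With filterByExpr they were Foxk1 (-0.0128), Foxm1 (-0.0088) and Foxn2 (-0.0038), with genes only Foxm1 (-0.0045), and with all embryos Foxm1 (-0.0169) and Foxn2 (-0.0083). In batch 1 they were Foxk1 (-0.12), Foxo1 (0.0243), Foxo3 (-0.0823), Foxm1 (-0.19), Foxn2 (-0.35) and Foxr1 (0.16), and in batch 2 Foxj2 (-0.0661) and Foxk2 (0.0623). With the mCherry-Trim21 covariate they were Foxo3 (-0.0377), Foxn2 (-0.0569) and Foxr1 (0.12). Between batches, spike-ins turned Foxj2 (-0.0158), Foxo1 (-0.0115) and Foxr1 (0.0056).

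With 1 embryo left out, sign changes without a call gave ranges of -0.19 to 0.0835 (Foxo1), -0.0186 to 0.21 (Foxo3) and -0.10 to 0.13 (Foxn2) in TBP LOF. In FOXJ3 LOF they were -0.0343 to 0.23 (Foxj2), -0.0645 to 0.18 (Foxk1), -0.0167 to 0.19 (Foxo3), -0.0522 to 0.0921 (Foxm1), -0.0353 to 0.13 (Foxn2) and -0.17 to 0.0566 (Foxr1). Depth limits Foxp1, at 10 reads or fewer in every embryo.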

Other observations

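Foxn3 and Foxi3 had the most reads among the forkhead genes outside the 10. Foxi3, a forkhead gene of the ear and tooth placodes, had a median of 9.31 CPM in both FOXJ3 groups, against 1.76 CPM in TBP LOF and 1.72 CPM in TBP CONTROL, and it had a read in 42 of 47 embryos. Foxn3 had medians of 31.1 CPM in TBP LOF and 23.4 CPM in TBP CONTROL, and of 22.4 CPM and 15.6 CPM in FOXJ3 LOF and CONTROL. These levels were not tested between experiments, where the library preparation and the injected IgG differ as well and cannot be told apart from the embryos. Both genes were picked after their values were seen.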
